A study of Homo sapiens with 16 samples.

Results

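Small leucine-rich proteoglycans and versican are secreted core proteins of the extracellular matrix, and the 10 genes examined here were DCN (decorin), LUM (lumican), BGN (biglycan), FMOD (fibromodulin), OGN (osteoglycin), OMD (osteomodulin), PRELP, ASPN (asporin), PODN (podocan) and VCAN (versican). They were chosen by name and matched through their Ensembl identifiers to GENCODE symbols. All 10 were among the 60649 identifiers of the deposited count table, and all 10 were among the 19103 genes with enough counts to test. The cells were ASC52telo, a single line of adipose-derived mesenchymal stem cells (MSCs) immortalized with telomerase reverse transcriptase, grown in culture, so the libraries of a group are cultures of 1 line and not different donors. The 4 groups of 4 libraries were MmC-/GDF11- ("young" MSCs with neither agent), MmC-/GDF11+ (young MSCs given growth differentiation factor 11, GDF11, at 10 ng/mL), MmC+/GDF11- (senescent MSCs, made with the DNA alkylating agent mitomycin C, MmC, at 1.5 µg/mL for 18 h) and MmC+/GDF11+ (senescent MSCs given the same GDF11). GDF11 was present during the 10 days after MmC, and RNA of all groups was taken at the end of that period. The questions were how these transcripts differ between young and senescent MSCs and whether GDF11 changes them in either.

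The small leucine-rich proteoglycans share a core of leucine-rich repeats with which many of them bind collagen, and they take part in setting the diameter and spacing of collagen fibrils. Their cores carry chondroitin or dermatan sulfate (decorin, biglycan), keratan sulfate (lumican, fibromodulin, osteomodulin, osteoglycin) or few or no such chains (asporin, podocan, PRELP), and several bind growth factors of the TGF-beta family, to which GDF11 belongs. Versican is a large chondroitin sulfate proteoglycan that binds hyaluronan and belongs with aggrecan, neurocan and brevican to the hyalectans. MSCs of adipose tissue are stromal cells that make much of the matrix around them, decorin and lumican included.

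The total count lay between 71275337 and 144204979 per library. Of 6 MSC markers (NT5E, THY1, ENG, CD44, ITGB1 and PDGFRB), all passed the filter, with a sum between 5089.9 and 6698 CPM (a count as a share of the library's total, scaled by the TMM method) in the 16 libraries. Lists of 5 markers each for other cell types summed to much less. The sums reached at most 2.53 CPM for adipocytes, 2.26 for osteoblasts, 1.66 for tenocytes, 5.83 for blood cells and macrophages and 32.5 for endothelial cells. The chondrocyte list summed to between 4.10 and 15.9 CPM in MmC- and between 1.28 and 4.72 CPM in MmC+ libraries, and 3 of its 5 markers (COL2A1, COL9A1 and COL11A2) had too few counts to test. ACAN made up most of that sum in MmC- groups (mean 6.16 and 5.77 CPM beside 1.68 and 1.56 for MATN3). In MmC+ groups it was near MATN3 (1.14 and 1.08 CPM beside 0.968 and 1.11). The blood list was higher in MmC+ (3.601 to 5.83 CPM) than in MmC- libraries (2.11 to 3.26 CPM). The part of these shifts in the results below was not tested. In bulk RNA fewer cells that make a transcript and less of it per cell cannot be told apart.

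Per kilobase of exon, lumican, biglycan and decorin were the most abundant of the 10 transcripts in every group. In MmC-/GDF11- libraries LUM had 97.9 ± 60.9 RPKM (CPM per kilobase of all exons of the gene, SD, n = 4), BGN 87.0 ± 46.2 and DCN 73.0 ± 39.5. VCAN followed at 23.6 ± 5.43 RPKM, and PODN at 16.2 ± 11.3, ASPN at 13.3 ± 10.3 and FMOD at 7.18 ± 6.74 formed a middle range. PRELP (2.89 ± 2.67 RPKM), OMD (1.34 ± 1.53) and OGN (0.736 ± 0.438) were the lowest. Within this group each transcript overlapped the next in the order, except that the 4 DCN libraries lay above the 4 VCAN libraries. In MmC+/GDF11- libraries the order of mean RPKM became DCN (101 ± 14.2), LUM (95.4 ± 32.3), BGN (56.2 ± 18.2), VCAN (33.2 ± 2.21), FMOD (25.1 ± 13.7), PODN (10.2 ± 7.72), ASPN (3.16 ± 2.14), PRELP (1.79 ± 0.785), OMD (0.190 ± 0.211) and OGN (0.0641 ± 0.0487). FMOD thus stood 7th in young and 5th in senescent MSCs, and ASPN 6th and 7th. Among neighbours of this order in senescent MSCs without GDF11, PRELP and OMD alone did not overlap. The place of DCN rests on the length used. With the length of the Ensembl canonical transcript in place of all exons DCN had the highest mean in all 4 groups, at 138 ± 74.6 RPKM in MmC-/GDF11- and 191 ± 26.9 in MmC+/GDF11-.

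Among all genes, DCN, LUM and BGN were near the top of the transcriptome, and OGN was near its lower end in senescent MSCs alone. In MmC-/GDF11- libraries 370 of 19063 genes with a length had a higher mean RPKM than LUM, 511 than DCN and 11687 than OGN. In MmC+/GDF11- libraries 17251 had a higher mean than OGN and 1627 than FMOD, where 4932 had been above FMOD in young MSCs. Together the 10 transcripts held between 203 and 594 RPKM per library. As the plot of their make-up shows, decorin took a larger share of this sum in the senescent libraries numbered 2 to 4 than in any young library, and FMOD took a larger share in each senescent library than in any young one.

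**Figure D1:**
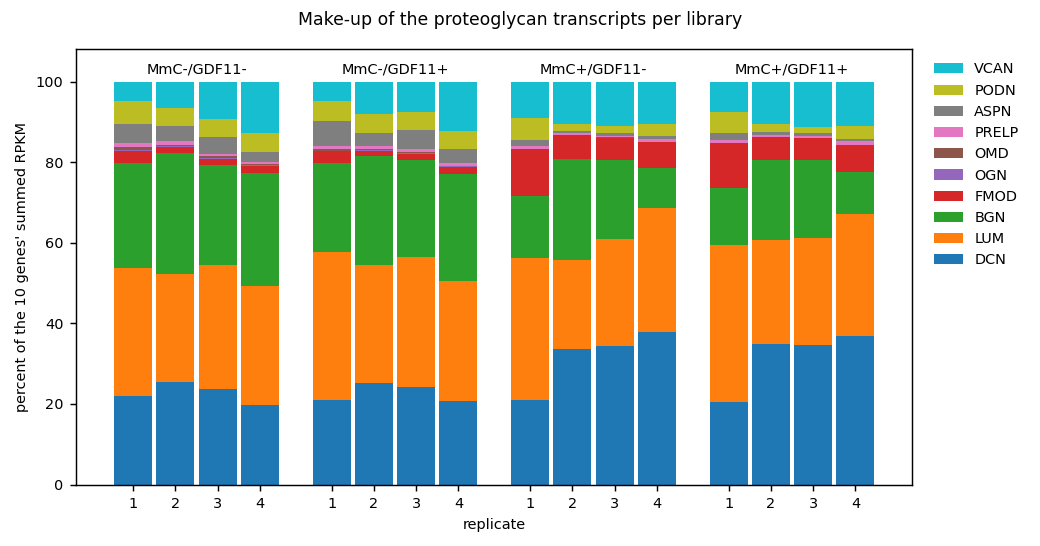
Share of each of the 10 transcripts in their summed RPKM (vertical axis, percent) in each library (horizontal axis, replicate number within the 4 groups). The FMOD share was on average 1.96% in MmC-/GDF11- and 7.38% in MmC+/GDF11- libraries, and the ASPN share 3.802% and 0.917%.

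Before the comparisons, the libraries numbered replicate 1 have to be set apart, because they carried more of most of these transcripts than the other libraries of their groups. LUM, FMOD, OGN, OMD, ASPN and PODN were highest in replicate 1 in all 4 groups. For OMD replicate 1 was between 3.63 and 6.15 times the mean of the other 3 libraries, for FMOD between 2.43 and 4.55 times and for ASPN between 2.99 and 3.56 times. Over all genes tested, 1785 of 19103 (9.34%) were highest in replicate 1 in all 4 groups and 1637 (8.57%) lowest. DCN behaved otherwise, with replicate 1 the highest library in both young groups and the lowest in both senescent groups. The samples of a group are described as biological replicates, and the authors name batch effects among the limits of the study without saying which libraries these touch. What the number stands for is not given in the sources used here. The fitted changes of the 10 transcripts and the counts of called genes in the lists are therefore given with and without these 4 libraries.

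**Figure D2:**
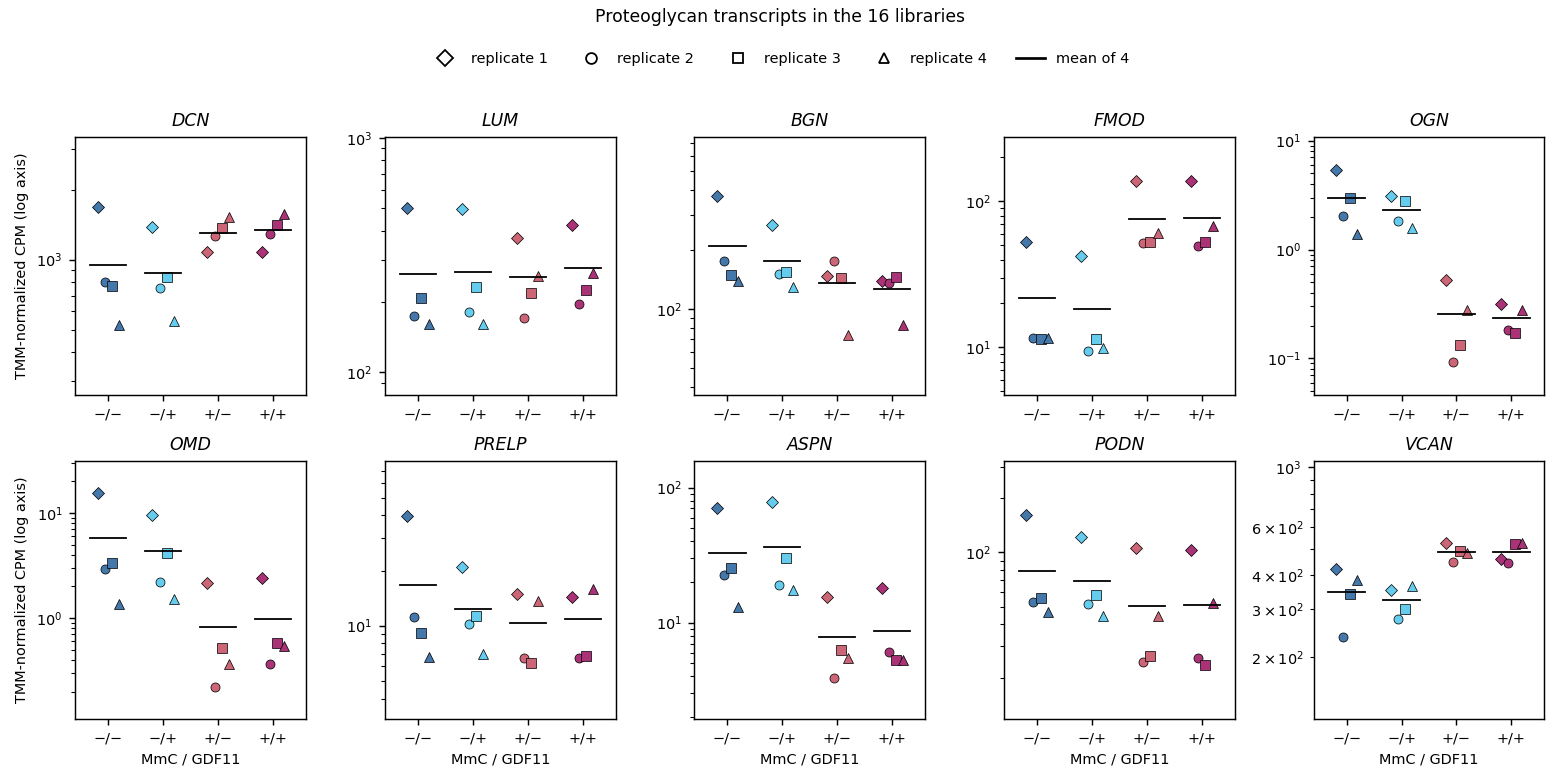
TMM-normalized CPM of each transcript (vertical axes, logarithmic, with a scale of their own for each gene) in the 4 groups (horizontal axes, MmC/GDF11), with 1 symbol per library and a bar at the mean of 4. FMOD and VCAN sit higher and OGN lower in MmC+ than in MmC- groups, and the diamonds of replicate 1 lie above the other libraries in most panels.

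In senescent MSCs fibromodulin and versican transcripts were higher and osteoglycin, osteomodulin and asporin transcripts lower than in young MSCs, while decorin, lumican and biglycan, the most abundant, did not pass the test. Without GDF11, 5 of the 10 transcripts passed edgeR's quasi-likelihood test (Benjamini-Hochberg adjusted p under 0.05), 2 of them higher and 3 lower after MmC. Of all genes tested 45.3% passed, 22.9% higher and 22.4% lower, so the share of the proteoglycans called was close to that of genes in general. With GDF11, 4 of the 10 passed, 2 higher and 2 lower, against 46.7% of all genes (23.4% higher and 23.3% lower). The median log2 fold change of the 10 was -0.64 without and -0.30 with GDF11, beside -0.011 and -0.0100 over all genes. The 4 MmC+ and 4 MmC- libraries did not overlap for 2 of the 10 transcripts without GDF11 (OGN and VCAN) and for 3 with GDF11 (FMOD, OGN and VCAN), where 37.3% and 41.5% of all genes did not overlap. Without the 4 libraries numbered 1, 6 transcripts passed in each comparison, 3 higher and 3 lower (60% of the 10, against 51.7% of all genes without and 52.6% with GDF11). The comparisons without and with GDF11 share no library, but the same replicate numbers enter both and 1 estimate of the spread served both. Without a filter beyond 1 count, which left 41196 genes to adjust over, FMOD, OMD and ASPN missed the threshold without GDF11 (adjusted p = 0.0880, 0.0724 and 0.0603) and FMOD and ASPN with GDF11 (adjusted p = 0.0507 and 0.0590).

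Same-numbered libraries of MmC+/GDF11- and MmC-/GDF11- deviated together from their group means, so a fit with the replicate number as a block was run for this comparison as well. For MmC with GDF11 the lowest correlation of such deviations was 0.029. The numbers were not taken as pairs there, and same-numbered differences with GDF11 are given below for description alone. With the block 7 of the 10 transcripts passed without GDF11, 2 higher and 5 lower, against 57.9% of all genes. BGN and PODN were the added calls, both lower.

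**Figure D3:**
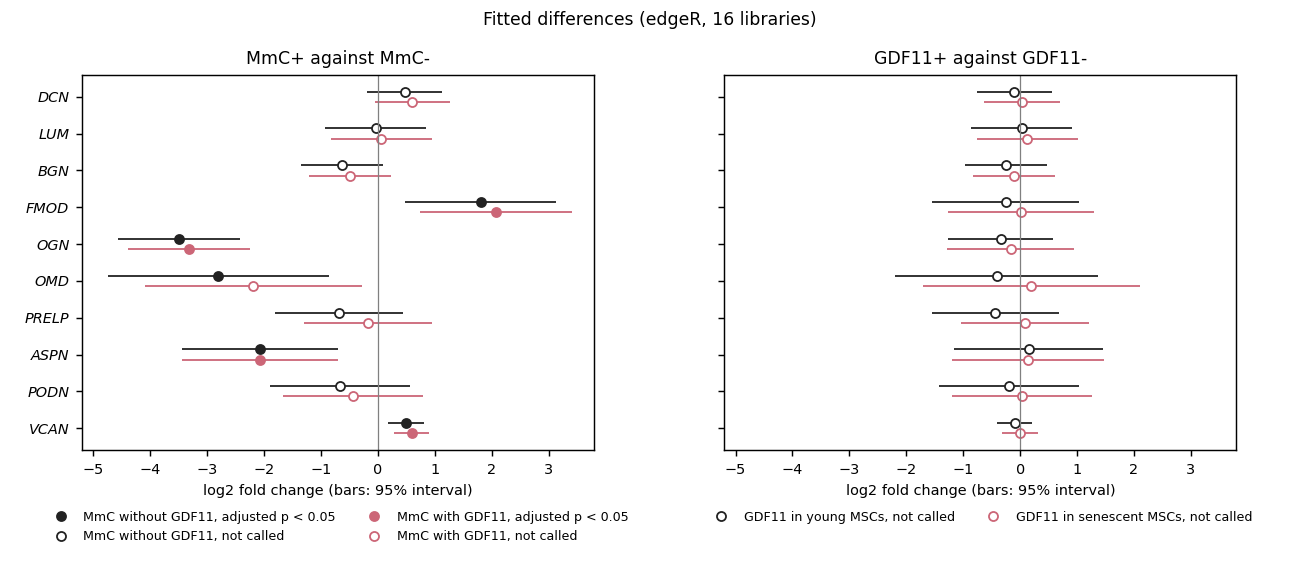
Fitted log2 fold change (horizontal axes) of each transcript for MmC (left) and GDF11 (right), with 95% intervals. Filled points passed an adjusted p of 0.05. FMOD and VCAN lie right of 0 and OGN and ASPN left of 0 in both MmC comparisons, OMD passed without GDF11 alone, and no GDF11 effect passed.

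Fibromodulin, which binds collagen and is known for its part in fibril assembly in tendon, had the largest rise. FMOD (ENSG00000122176.12, chr1:203340628-203351758 of hg38, minus strand) had 52.5, 11.6, 11.5 and 11.5 CPM in MmC-/GDF11- (replicates 1 to 4) and 138, 52.1, 52.9 and 60.8 CPM in MmC+/GDF11-. In MmC-/GDF11+ libraries it had 42.1, 9.51, 11.5 and 9.89 CPM and in MmC+/GDF11+ 137, 49.3, 52.5 and 68.1 CPM. Replicates 2 to 4 of each group lay close together, and the single young library that reached the senescent range without GDF11 was replicate 1. Without GDF11 the means were 21.8 ± 20.5 and 76.0 ± 41.7 CPM (SD, n = 4), that is, higher by 1.81 on the log2 scale (standard error, SE, 0.622, adjusted p = 0.0273). With GDF11 it was 2.07 (SE 0.628, adjusted p = 0.0138). Between same-numbered libraries the difference in log2 CPM was above 0 in all 4 pairs without GDF11, from 1.40 to 2.40. With GDF11, where the numbers were not taken as pairs, it was above 0 in all 4 as well, from 1.70 to 2.78. Without the libraries numbered 1 the log2 fold changes were 2.26 and 2.46, with adjusted p = 4.36e-09 and 2.02e-09. With the replicate block and all libraries FMOD had 2.03 without GDF11 (SE 0.169, adjusted p = 7.1e-07). The leave-out fits that follow had no block. In the fit of all numbers the call without GDF11 was lost without replicate 1 of MmC+/GDF11- (1.35, adjusted p = 0.1002), without replicate 2, 3 or 4 of MmC-/GDF11- (1.60 each, adjusted p = 0.0775, 0.0753 and 0.0741), and without number 2, 3 or 4 of every group (1.74, 1.74 and 1.70, adjusted p = 0.0935, 0.102 and 0.109), while without replicate 1 of MmC-/GDF11- it was 2.73. With GDF11 it was lost without replicate 1 of MmC+/GDF11+ (1.64, adjusted p = 0.0519) and without number 2, 3 or 4 (2.02, 2.06 and 1.94, adjusted p = 0.0555, 0.0616 and 0.0729), and was 2.91 without replicate 1 of MmC-/GDF11+.

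Osteoglycin, a keratan sulfate proteoglycan first described in bone, had the steepest fall of the 10 and one of the steepest of the transcriptome. OGN (ENSG00000106809.11, chr9:92383268-92404696, minus strand) had 5.41, 2.05, 3.00 and 1.38 CPM in MmC-/GDF11- (replicates 1 to 4) and 0.527, 0.0932, 0.134 and 0.276 CPM in MmC+/GDF11-. Young libraries with GDF11 had 3.11, 1.84, 2.77 and 1.57 CPM and in MmC+/GDF11+ 0.314, 0.183, 0.170 and 0.277 CPM. Each young library lay above every senescent library. These are small numbers, between 137 and 416 counts per young and between 8 and 52 per senescent library. The log2 fold change was -3.50 without GDF11 (SE 0.502, adjusted p = 5.6e-05), and 22 of the 19103 genes had a lower one. With GDF11 it was -3.32 (SE 0.504, adjusted p = 8.94e-05), and 24 genes had a lower one. Leaving out number 1 of every group gave -3.66 without GDF11 (adjusted p = 2.94e-06) and -3.30 with it (adjusted p = 5.08e-06). OGN passed under each alternative fit that kept it (a minimum of 10 counts in every library left it out) and with each library left out, with adjusted p of at most 0.00314 without and 0.00476 with GDF11, and without replicate 1 of MmC+/GDF11- the fall was steeper, at -4.12.

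Osteomodulin and asporin lie beside osteoglycin on chromosome 9 and fell with it, but with a much wider spread. OMD (ENSG00000127083.8, chr9:92412380-92424471, minus strand), a keratan sulfate proteoglycan of bone and tooth matrix, had 15.6, 2.94, 3.33 and 1.36 CPM in MmC-/GDF11- (replicates 1 to 4) and 2.18, 0.221, 0.525 and 0.368 CPM in MmC+/GDF11-. In MmC-/GDF11+ libraries it had 9.55, 2.199, 4.18 and 1.51 CPM and in MmC+/GDF11+ 2.41, 0.366, 0.580 and 0.544 CPM. The groups overlapped because replicate 1 of the senescent groups was above replicate 4, or replicates 2 and 4, of the young groups. Between same-numbered libraries the senescent one was lower in all 4 cases of both comparisons, but with GDF11 the numbers were not taken as pairs. The fitted change was -2.80 on the log2 scale without GDF11 (SE 0.912, adjusted p = 0.0208) and -2.19 with GDF11 (SE 0.896, adjusted p = 0.0567), which missed the threshold. Without the libraries numbered 1 OMD passed in both, at -2.76 (adjusted p = 0.000167) and -2.39 (adjusted p = 0.000368). With the replicate block and all libraries OMD had -2.76 without GDF11 (SE 0.263, adjusted p = 1.1e-06). With GDF11 the block gave -2.24 (SE 0.256, adjusted p = 5.79e-06). The leave-out fits that follow had no block. Without GDF11 the call was lost without replicate 1 of MmC-/GDF11- (-1.60, adjusted p = 0.126), without replicate 2, 3 or 4 of MmC+/GDF11- (-2.48, -2.64 and -2.55, adjusted p = 0.0572, 0.0574 and 0.0608) and without number 2 or 3 (-2.71 and -2.82, adjusted p = 0.0697 and 0.0908), and without replicate 1 of MmC+/GDF11- the value was -3.95. With GDF11 the value without replicate 1 of MmC-/GDF11+ was only -1.45 (adjusted p = 0.208), and OMD missed the threshold as well without number 2, 3 or 4 of every group (-2.13, -2.00 and -2.27, adjusted p = 0.133, 0.210 and 0.0988). OMD passed with GDF11 without replicate 1 of MmC+/GDF11+ (-3.12, adjusted p = 0.0200), replicate 4 of MmC-/GDF11+ (-2.47, adjusted p = 0.0455) or replicate 1 of a group not compared (-2.18 and -2.19, adjusted p = 0.0329 and 0.0421), with the groups compared alone (-2.17, adjusted p = 0.0363), in limma-voom (-2.27, adjusted p = 0.0376) and in DESeq2 (-2.14, adjusted p = 0.0390).

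Asporin binds collagen and TGF-beta and is known for the aspartate run near its N terminus. ASPN (ENSG00000106819.13, chr9:92456205-92482506, minus strand) had 70.1, 22.5, 25.3 and 13.1 CPM in MmC-/GDF11- (replicates 1 to 4) and 15.6, 3.90, 6.29 and 5.43 CPM in MmC+/GDF11-. Young libraries with GDF11 had 78.7, 18.98, 29.9 and 17.5 CPM and in MmC+/GDF11+ 18.0, 6.02, 5.25 and 5.31 CPM. Only replicate 1 of the senescent groups reached into the range of the young groups, and the senescent library was lower in each same-numbered pair, by 1.27 to 2.52 on the log2 scale without GDF11. On the log2 scale the change was -2.07 both without (SE 0.645, adjusted p = 0.0165) and with GDF11 (SE 0.644, adjusted p = 0.0159). Without the libraries numbered 1 it was -1.96 and -2.00, with adjusted p = 3.67e-05 and 3.01e-05. With the replicate block and all libraries ASPN had -2.00 without GDF11 (SE 0.173, adjusted p = 7.13e-07). The leave-out fits that follow had no block. The call without GDF11 was lost without replicate 1 of MmC-/GDF11- (-1.36, adjusted p = 0.0794), without replicate 2 or 4 of MmC+/GDF11- (-1.84 and -1.92, adjusted p = 0.0507 each) and without number 2 or 3 (-1.99 and -2.07, adjusted p = 0.0694 and 0.0795). With GDF11 it was lost without replicate 1 of MmC-/GDF11+ (-1.35, adjusted p = 0.0817), without replicate 3 or 4 of MmC+/GDF11+ (-1.88 and -1.89, adjusted p = 0.0502 and 0.0511) and without number 2 or 3 (-2.15 and -1.96, adjusted p = 0.0513 and 0.0944), and was -2.71 without replicate 1 of MmC+/GDF11+.

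**Figure D4:**
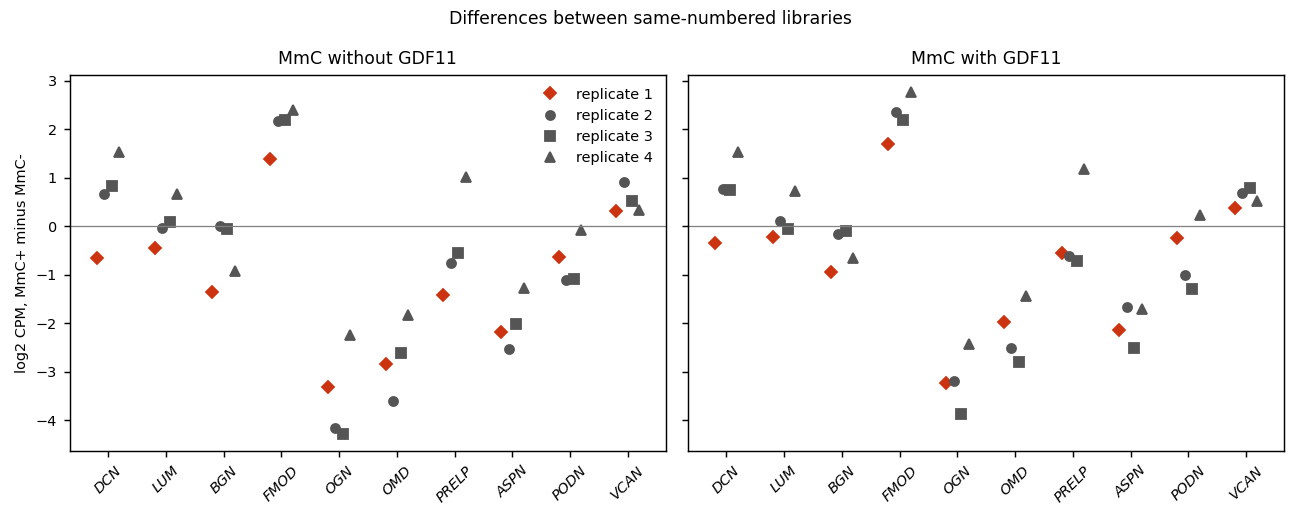
Difference in log2 CPM between the MmC+ and the MmC- library of the same replicate number (vertical axis) for each transcript, without GDF11 (left) and with GDF11 (right). FMOD and VCAN are above 0 and OGN, OMD and ASPN below 0 in all pairs, and for DCN the pair of replicate 1 lies below 0 and the other 3 above.

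OGN, OMD, ASPN and ECM2, a further gene of the family, follow each other on the minus strand of chromosome 9 and all had lower means in senescent MSCs. ECM2 (chr9:92493554-92536655) had a log2 fold change of -1.43 without GDF11 (SE 0.450, adjusted p = 0.0171) and -1.20 with GDF11 (SE 0.447, adjusted p = 0.0381). The gaps between these genes were 7.68 kb from OGN to OMD, 31.7 kb from OMD to ASPN and 11.0 kb from ASPN to ECM2. CENPP, which encodes a centromere protein, spans all 4 on the opposite strand without sharing exonic bases with the 3 proteoglycans described above, and was lower as well, at -1.52 (SE 0.180, adjusted p = 7.52e-06) and -1.53 (SE 0.180, adjusted p = 7.1e-06). The 2 genes on the other side of OGN were not called. IARS1 had a log2 fold change of 0.082 (adjusted p = 0.587) and NOL8 of 0.065 (adjusted p = 0.618) without GDF11. The plot of the 3 gene clusters sets these values on their positions. On chromosome 12, LUM and DCN lie beside EPYC and KERA, cartilage and cornea members of the family, which had 42 and 31 counts in all 16 libraries together and could not be tested. On chromosome 1, FMOD rose beside BTG2, a gene known to respond to p53 (1.63, SE 0.356, adjusted p = 0.00174 without GDF11), while PRELP, 124 kb from FMOD, was not called and OPTC beyond it had 9 counts.

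**Figure D5:**
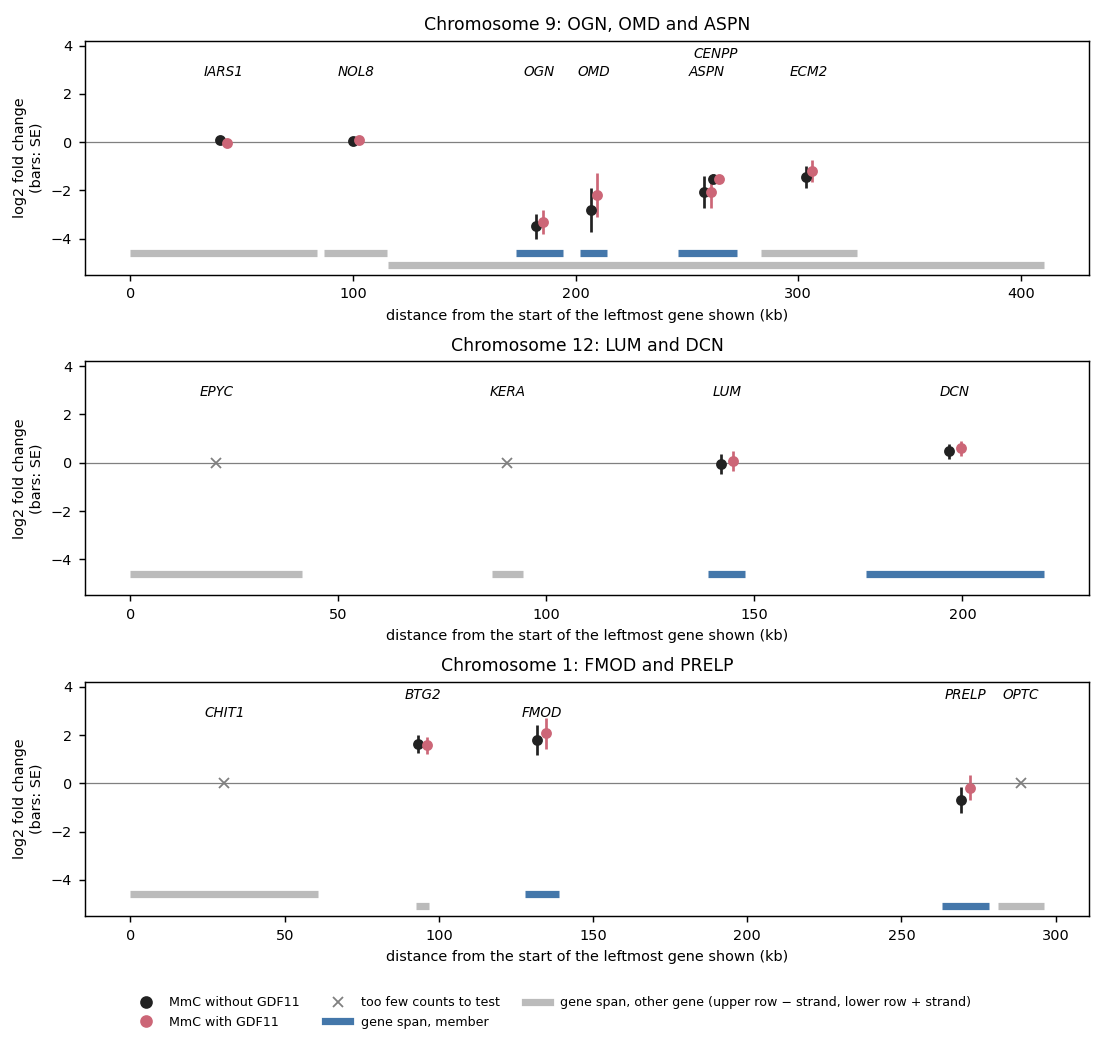
Log2 fold change for MmC (vertical axes, bars: standard error) of the genes in 3 clusters, placed by distance from the start of the leftmost gene shown (horizontal axes, kb), with gene spans at the foot of each panel and crosses for genes with too few counts. OGN, OMD, ASPN, ECM2 and CENPP lie below 0 and IARS1 and NOL8 near 0, and FMOD and BTG2 lie above 0.

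The sequences before the start of FMOD, which rose, and of OGN and ASPN, which fell, are shown so that the most changed genes can be compared. They are the 250 bases before the RefSeq start on GRCh38.p14, read 5′ to 3′ on the gene's strand, chr1:203351123-203351372 for FMOD, chr9:92404697-92404828 for OGN and chr9:92482507-92482756 for ASPN, and the OGN line is limited to the 132 bases that no GENCODE exon covers. Capitals mark the letters of motifs searched on both strands, the TATA box (letters TATAAA), the CCAAT box (letters CCAAT), the AP-1 site (letters TGANTCA), the SMAD box (letters CAGAC) and the NF-kappaB site.
FMOD: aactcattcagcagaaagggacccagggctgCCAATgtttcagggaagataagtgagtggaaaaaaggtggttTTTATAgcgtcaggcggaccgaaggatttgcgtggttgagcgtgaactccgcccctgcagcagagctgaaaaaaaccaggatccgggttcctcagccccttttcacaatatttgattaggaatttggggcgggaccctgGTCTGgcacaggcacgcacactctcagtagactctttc
OGN: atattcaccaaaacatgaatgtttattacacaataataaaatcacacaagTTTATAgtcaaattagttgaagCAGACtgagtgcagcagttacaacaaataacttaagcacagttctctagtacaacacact
ASPN: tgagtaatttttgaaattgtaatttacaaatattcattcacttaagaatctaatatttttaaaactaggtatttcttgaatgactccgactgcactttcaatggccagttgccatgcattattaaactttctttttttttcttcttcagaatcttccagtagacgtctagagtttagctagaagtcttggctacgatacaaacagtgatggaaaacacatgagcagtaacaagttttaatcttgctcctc
FMOD held the CCAAT letters 219, the TATA letters (minus strand) 177 and the SMAD letters (minus strand) 38 bases before the start, OGN the TATA letters (minus strand) 200 and the SMAD letters 178 bases before it, and ASPN none of the 5. In all 35116 promoters of the table the TATA letters stood in 10.7%, CCAAT in 32.0%, AP-1 in 6.57%, SMAD in 38% and NF-kappaB in 9.96%. Over the full 250 bases, of which the OGN line shows 132, OGN and ASPN were rich in A and T. They had 36% and 32.4% G or C and FMOD had 51.6%, where the quartiles of all promoters were 46.4%, 58.0% and 68.0%. The RefSeq start of FMOD lies 636 bases inside the GENCODE gene span, and that of OGN 118 bases inside its own. Of the other genes, BGN, PRELP, PODN and VCAN had an entry in the promoter table, and DCN, LUM and OMD are given here by name only.

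Versican gave the most even rise, small but visible in each library. VCAN (ENSG00000038427.16, chr5:83471618-83582303, plus strand) had 422, 237, 340.0 and 384 CPM in MmC-/GDF11- (replicates 1 to 4) and 527, 447, 492 and 484 CPM in MmC+/GDF11-. In MmC-/GDF11+ libraries it had 353, 277, 300.2 and 364 CPM and in MmC+/GDF11+ 459, 443, 521 and 528 CPM. No senescent library fell into the range of the young libraries in either comparison. The fitted rise was 0.50 on the log2 scale without GDF11 (SE 0.147, adjusted p = 0.0116), a 1.41-fold rise, and 0.59 with GDF11 (SE 0.147, adjusted p = 0.00379), a 1.51-fold rise. Leaving out number 1 of every group gave 0.57 without GDF11 (adjusted p = 0.00680) and 0.67 with it (adjusted p = 0.00230). The call was lost without number 3 of every group (0.49, adjusted p = 0.0812, and 0.54, adjusted p = 0.0590). The antisense gene VCAN-AS1 shares 453 exonic bases with VCAN (3.09% of its exons) and had between 1 and 11 counts per library.

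Decorin, which binds collagen and TGF-beta, was not called with all libraries and was called without those numbered 1. DCN (ENSG00000011465.18, chr12:91140484-91183217, minus strand) had 1689.6, 799, 766 and 524 CPM in MmC-/GDF11- (replicates 1 to 4) and 1083, 1263, 1365 and 1522 CPM in MmC+/GDF11-. Young libraries with GDF11 had 1377, 757, 838 and 544 CPM and in MmC+/GDF11+ 1083, 1285, 1409 and 1575 CPM. Replicate 1 of the young groups lay within or above the senescent range, and the other 3 young libraries lay below each senescent library. Over all libraries the log2 fold change was 0.47 without GDF11 (SE 0.311, adjusted p = 0.233) and 0.61 with GDF11 (SE 0.311, adjusted p = 0.123). With the replicate block DCN stayed uncalled, at 0.58 without (SE 0.323, adjusted p = 0.144) and 0.70 with GDF11 (SE 0.321, adjusted p = 0.0829). Within pairs of the same number the difference in log2 CPM was -0.64 in replicate 1 and 0.66, 0.83 and 1.54 in replicates 2, 3 and 4 without GDF11, and -0.35, 0.76, 0.75 and 1.53 with GDF11. Without the libraries numbered 1 the log2 fold change was 0.99 (adjusted p = 0.000297) and 1.00 (adjusted p = 0.000272). Leaving out replicate 1 of the young group compared was enough for a call, at 0.92 in both (adjusted p = 0.00873 and 0.0232), and with GDF11 so was leaving out replicate 1 of MmC-/GDF11- (0.62, adjusted p = 0.0396).

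Biglycan, the relative of decorin that carries a pair of glycosaminoglycan chains and signals through Toll-like receptors once released, had a lower mean in senescent MSCs that passed with the block alone. BGN (ENSG00000182492.16, chrX:153494980-153509546, plus strand) had 374, 175, 149 and 138 CPM in MmC-/GDF11- (replicates 1 to 4) and 147, 176, 144 and 73.3 CPM in MmC+/GDF11-. In MmC-/GDF11+ libraries it had 268, 151, 155 and 130 CPM and in MmC+/GDF11+ 139, 136, 146 and 82.3 CPM. The groups overlapped, and the difference between same-numbered libraries was large in replicates 1 and 4 (-1.34 and -0.91 in log2 CPM without GDF11) and near 0 in replicates 2 and 3 (0.0040 and -0.050). The log2 fold change was -0.63 without (SE 0.339, adjusted p = 0.142) and -0.48 with GDF11 (SE 0.338, adjusted p = 0.257). With the replicate block it was -0.58 without GDF11 (SE 0.219, adjusted p = 0.0393). Leaving out number 1 of every group gave, with no block, -0.23 without GDF11 (adjusted p = 0.522) and -0.26 with it (adjusted p = 0.477). Leaving out replicate 1 of the young group compared moved the values most, to -0.18 (adjusted p = 0.650) and -0.19 (adjusted p = 0.676).

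Podocan, a member of the family known from the vessel wall, had the same outcome. PODN (ENSG00000174348.14, chr1:53062052-53085501, plus strand) had 162, 52.7, 56.0 and 46.3 CPM in MmC-/GDF11- (replicates 1 to 4) and 105, 24.7, 26.3 and 44.2 CPM in MmC+/GDF11-. In MmC-/GDF11+ libraries it had 122, 51.7, 57.9 and 44.4 CPM and in MmC+/GDF11+ 103, 25.7, 23.7 and 52.4 CPM. The senescent library was lower in each pair without GDF11, where replicate 4 differed by only -0.066 on the log2 scale, and in 3 of 4 pairs with GDF11, where replicate 4 was higher by 0.24. Its log2 fold change was -0.66 without (SE 0.577, adjusted p = 0.374) and -0.43 with GDF11 (SE 0.576, adjusted p = 0.566), and with the replicate block -0.72 without GDF11 (SE 0.232, adjusted p = 0.0199). Leaving out number 1 of every group gave, with no block, -0.70 without GDF11 (adjusted p = 0.0667) and -0.60 with it (adjusted p = 0.112). Leaving replicate 1 out of 1 group alone, while the other group kept its high replicate 1, moved the values further. Without GDF11 the log2 fold change was -0.030 (adjusted p = 0.972) without replicate 1 of MmC-/GDF11- and -1.31 (adjusted p = 0.0826) without replicate 1 of MmC+/GDF11-. With GDF11 it was 0.0074 (adjusted p = 0.994) without replicate 1 of MmC-/GDF11+ and -1.02 (adjusted p = 0.175) without replicate 1 of MmC+/GDF11+. An antisense transcript (ENSG00000232993) shares 466 bases, or 9.51%, of the exons of PODN and had at most 6 counts in a library.

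Lumican and PRELP, which bind collagen and, for PRELP, also the heparan sulfate of basement membranes, were not called under any setting run. LUM (ENSG00000139329.5, chr12:91102629-91111494, minus strand) ranged from 161 to 504 CPM in MmC-/GDF11- and from 171 to 373 CPM in MmC+/GDF11-, with replicate 1 the highest library of each group. Its log2 fold change was -0.037 without (95% interval -0.92 to 0.85, adjusted p = 0.951) and 0.058 with GDF11 (95% interval -0.83 to 0.95, adjusted p = 0.921), so a change of up to about 1 on the log2 scale in either direction lay within these intervals. Leaving out number 1 of every group gave LUM 0.25 (adjusted p = 0.219) and 0.26 (adjusted p = 0.197), and leaving out replicate 1 of the young group alone 0.51 (adjusted p = 0.295) and 0.56 (adjusted p = 0.270). PRELP (ENSG00000188783.6, chr1:203475806-203491352, plus strand) ranged from 6.72 to 39.6 CPM in MmC-/GDF11- and from 6.23 to 14.9 CPM in MmC+/GDF11-. Its pairs pointed both ways, with the senescent library lower in replicates 1, 2 and 3 (-1.41, -0.75 and -0.54 in log2 CPM without GDF11) and higher in replicate 4 (1.02). The log2 fold change of PRELP without GDF11 was -0.69 (95% interval -1.81 to 0.44, adjusted p = 0.310) and -0.17 (95% interval -1.30 to 0.95, adjusted p = 0.812) with GDF11. Leaving out 1 library was enough to turn its direction in each comparison. Without replicate 1 of MmC-/GDF11- the value was 0.21 (adjusted p = 0.713) without GDF11, and without replicate 1 of MmC-/GDF11+ it was 0.21 (adjusted p = 0.783) with GDF11. With number 1 of every group left out PRELP had -0.027 (adjusted p = 0.960) and 0.048 (adjusted p = 0.931).

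None of the 10 transcripts passed the test for GDF11, in young or in senescent MSCs. In edgeR's test 0 of 10 had an adjusted p under 0.05 in either comparison (background 0% of all genes), 0 had an unadjusted p under 0.05 (1.18% of all genes in young and 0.503% in senescent MSCs), and limma-voom and DESeq2 called 0 of the 10. In young MSCs the log2 fold changes lay between -0.43 (PRELP) and 0.15 (ASPN), and in senescent MSCs between -0.17 (OGN) and 0.20 (OMD). Leaving out replicate 1 of 1 group alone moved several of these values, while replicate 1 of the other group stayed in. In young MSCs, leaving out replicate 1 of MmC-/GDF11- gave 0.67 for FMOD, 0.78 for OMD, 0.46 for PRELP and 0.84 for ASPN, and leaving out replicate 1 of MmC-/GDF11+ gave -1.08, -1.15, -0.81 and -0.57. In senescent MSCs OMD had 1.35 without replicate 1 of MmC+/GDF11- and -0.73 without replicate 1 of MmC+/GDF11+, where ASPN had 0.73 and -0.49 and PODN 0.69 and -0.56. With number 1 of every group left out, the values lay between -0.17 (FMOD) and 0.12 (ASPN) in young and between -0.11 (BGN) and 0.42 (OMD) in senescent MSCs, and 0 of 10 passed. In the fit with no block the precision differed greatly between transcripts. VCAN was the most closely bounded, at -0.096 in young (95% interval -0.41 to 0.22) and 1.57e-05 in senescent MSCs (95% interval -0.31 to 0.31). DCN differed by -0.10 in young (95% interval -0.76 to 0.55) and 0.032 in senescent MSCs (95% interval -0.63 to 0.69). For FMOD the interval ran from -1.55 to 1.04 in young and from -1.27 to 1.29 in senescent MSCs. For OMD it ran from -2.201 to 1.37 and from -1.72 to 2.11. In this fit, which had no block, 2-fold changes of FMOD and OMD in either direction lay within these intervals. With the replicate block the values in senescent MSCs were 0.021 (SE 0.161) for FMOD and 0.33 (SE 0.276) for OMD. They were 0.13 (SE 0.171) for ASPN, 0.049 (SE 0.230) for PODN and 0.034 (SE 0.316) for DCN, and none of these passed. The order of precision thus depended on the block, with which DCN was less precise than FMOD or OMD. The young and the senescent libraries with GDF11 also enter the MmC comparisons, and those values are not independent of these. The difference of the MmC log2 fold changes with and without GDF11 passed for 0 of 10 transcripts in edgeR's test (at an unadjusted p under 0.05 it was 0 too, against 0.9% of all genes, and limma-voom and DESeq2 called 0), and was largest for OMD, at 0.61 (95% interval -2.01 to 3.23, adjusted p = 1.00).

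The transcripts whose pattern over the 16 libraries was most like that of a changed member were found by the root mean square difference of log2 CPM, each gene centred on its own mean, among 11881 genes with enough counts. The gene most like FMOD was RDH10, a retinol dehydrogenase (0.278), followed by ICAM1, an adhesion molecule (0.288), and SPATA18 (0.327), beside a standard deviation of 1.32 of FMOD itself. OGN was nearest to RCAN2, a regulator of calcineurin (0.374), TMEM130 (0.458) and DAB1 (0.469). OMD was nearest to its neighbour ASPN (0.464), then to LINC01018 (0.573) and WNT2 (0.588). ASPN was nearest to WNT2, a secreted Wnt ligand (0.253), MFAP4, a microfibril-associated glycoprotein (0.365), and AFF3 (0.452). Group differences and the height of replicate 1 are part of these profiles. Among the 10 themselves the nearest pairs were LUM with PRELP (0.389), PRELP with PODN (0.395) and DCN with VCAN (0.413), and the farthest was FMOD with OGN (2.79).

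The enzymes that build the sugar chains of these core proteins tended to be higher in senescent MSCs. Of 21 tested genes of chondroitin and dermatan sulfate synthesis, 11 were higher and 0 lower without GDF11 (median log2 fold change 0.57), and 10 and 0 with GDF11 (median 0.49), beside medians of -0.011 and -0.0100 over all genes. With the replicate block 14 were higher and 3 lower without GDF11 (81% called, against 57.9% of all genes, 5506 higher and 5560 lower). Without the libraries numbered 1, 12 were higher and 3 lower (71.4%, against 51.7% of all genes, 5059 higher and 4945 lower). These shares over all genes, and 59% with the block and 52.6% without number 1 for MmC with GDF11, also apply to the counts of the other lists under these fits. In the fit of all libraries with no block the shares were 45.3% without and 46.7% with GDF11, here and for the other lists. CSGALNACT1, which adds the sugar that starts a chondroitin chain, went from 7.09 ± 1.31 to 78.4 ± 48.0 CPM (SD, n = 4) and was higher by 3.47 on the log2 scale (SE 0.634, adjusted p = 0.000461). CHPF and CHPF2, which take part in extending the chain, rose by 1.23 (adjusted p = 3.49e-05) and 0.88 (adjusted p = 3.87e-06) on the log2 scale, and the sulfotransferases CHST7 and UST by 1.24 (adjusted p = 1.36e-06) and 0.92 (adjusted p = 1.26e-06). Of 7 tested genes of keratan sulfate synthesis 6 were higher and 0 lower in each comparison (medians 1.18 and 1.23), and with number 1 left out 6 and 7 were higher and 0 lower. B4GALT1, a galactosyltransferase, rose from 331 ± 37.8 to 750.4 ± 121 CPM without GDF11 (1.18, adjusted p = 1.69e-06) and the sulfotransferase CHST2 from 17.6 ± 3.37 to 40.3 ± 4.396 CPM (1.19, adjusted p = 4.38e-05). CHST1 and CHST6, sulfotransferases too, rose by 1.99 and 2.02 but stayed under 1 CPM.

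Of 13 tested proteases that cleave versican or the small proteoglycans, 8 were higher and 2 lower in both comparisons (medians 1.16 and 1.21), beside 45.3% and 46.7% of all genes called in either direction. MMP3, stromelysin, went from 5.54 ± 2.07 to 780.0 ± 595 CPM without GDF11 (log2 fold change 7.13, SE 0.957, adjusted p = 3.5e-05), and MMP2, a gelatinase, from 1056 ± 210 to 2472 ± 424 CPM (1.23, SE 0.146, adjusted p = 7.84e-06). MMP13, a collagenase, had 0 counts in the MmC-/GDF11- libraries and 0.192 ± 0.111 CPM in MmC+/GDF11-. ADAMTS15, a metalloprotease that cleaves versican, fell from 62.6 ± 2.28 to 6.24 ± 3.20 CPM (-3.33, SE 0.364, adjusted p = 5.46e-06). With number 1 left out the count was 9 higher and 3 lower, and with the replicate block 10 and 2, in both comparisons, that is, 92.3% in each fit beside the shares of all genes given above.

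Among 14 tested hyalectans and hyaluronan partners of versican 4 were higher and 2 lower without GDF11 (median 0.26) and 6 and 2 with GDF11 (median 0.27). Of all genes 45.3% and 46.7% were called in these comparisons, a share to be set beside the lists that follow too. Without GDF11 the counts were 7 and 2 of 15 tested with number 1 left out, and 6 and 3 of 14 with the block. HAS1, a hyaluronan synthase, went from 0.567 ± 0.115 to 118 ± 101 CPM without GDF11 (7.69, SE 1.08, adjusted p = 5.18e-05) and TNFAIP6, which modifies and cross-links hyaluronan, from 15.4 ± 6.29 to 178 ± 48.9 CPM (3.53, SE 0.327, adjusted p = 1.12e-06). ACAN, the cartilage hyalectan aggrecan, was lower (-2.42, SE 0.786, adjusted p = 0.0204), as was HMMR, a hyaluronan receptor that is also a protein of the mitotic spindle (-2.18, SE 0.389, adjusted p = 0.000375). Of the 4 other small leucine-rich proteoglycan genes with enough counts, 1 was higher and 1 lower in each comparison (medians 0.56 and 0.70). The higher was TSKU (tsukushi), at 50.7 ± 4.27 and 110 ± 11.4 CPM (1.12, SE 0.105, adjusted p = 7.69e-07), and the lower was ECM2. With number 1 left out 2 were higher and 1 lower in each comparison. Of 20 tested matrix partners and receptors 4 were higher and 4 lower without GDF11 (median -0.18) and 4 and 2 with GDF11 (median -0.042). With number 1 left out 6 were higher and 7 lower in both comparisons, and with the block 7 and 7 without and 6 and 7 with GDF11. FN1, fibronectin, rose from 12323 ± 2465 to 20853 ± 4220 CPM (0.76, adjusted p = 0.00384), P2RX7, a receptor of ATP, rose by 2.06 (adjusted p = 7.89e-05), and the 4 lower genes were 3 collagens and ELN, elastin. COL6A3 (-1.18, adjusted p = 3.15e-05, and -0.99, adjusted p = 0.000136, with GDF11) and COL5A2 (-1.07, adjusted p = 0.0139, and -1.05, adjusted p = 0.0153) were lower in both comparisons. COL1A1 (-1.38, adjusted p = 0.0485, and -1.29, adjusted p = 0.0612) and ELN (-0.96, adjusted p = 0.0354, and -0.88, adjusted p = 0.0508) passed without GDF11 alone, and the difference between the comparisons was not tested for them. COL5A2 and ELN were named after their values were seen. No gene of these lists passed for GDF11.

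Of the marker lists of other cell types, the chondrocyte list had lower and the blood list higher sums in senescent MSCs, as given above, and few of the genes of these lists could be tested. The counts that follow stand beside 45.3% of all genes called without and 46.7% with GDF11. Without GDF11, 2 of the 6 MSC markers were higher (NT5E at 0.38 and ITGB1 at 0.35) and 1 lower (PDGFRB at -0.68). Of the genes of other cell types with enough counts, 1 adipocyte marker was higher and 1 lower of 4, 1 osteoblast marker was higher of 2, 2 chondrocyte markers were lower of 2, 1 tenocyte marker was lower of 2, 2 blood markers were higher of 4, and 3 endothelial markers were higher and 1 lower of 5. With GDF11, 3 MSC markers were higher and 1 lower, 2 adipocyte markers were higher and 1 lower, 1 osteoblast marker was higher, 1 chondrocyte and 1 tenocyte marker were lower, 3 blood markers were higher, and 2 endothelial markers were higher and 1 lower. With number 1 left out, the counts without GDF11 were 3 MSC markers higher and 2 lower, 3 adipocyte markers higher and 1 lower, 1 osteoblast marker higher, 2 chondrocyte and 1 tenocyte marker lower, 3 blood markers higher, and 3 endothelial markers higher and 1 lower. Their part in the values of the proteoglycans was not tested.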

How the data were processed

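Poly(A)-selected RNA of 16 ASC52telo samples was sequenced. The authors mapped reads with HISAT2 2.2.1 (hg38), counted them on GENCODE 38 genes with featureCounts 2.0.1 and deposited raw counts per gene. The strand and multimapping settings of the counting are not given in the sources used here.

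The analysis used edgeR 4.0.16 in R 4.3.3 on all 16 libraries (filterByExpr with a minimum count of 10, TMM, robust quasi-likelihood fit, 1 mean per group, no replicate block), with Benjamini-Hochberg adjustment over 19103 genes at 0.05. P-values measure the spread between cultures of 1 line. Log2 CPM had a prior count of 2. Symbols, positions and exon lengths came from GENCODE 44, in which 142 identifiers had no match, and promoters from RefSeq (7 of 10 genes matched). Of the exonic sequence of each gene at most 6.92% (PRELP) was also on alternate contigs.

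Replicate numbers were checked by correlating deviations from group means. All 4 pairs exceeded 0.1 for MmC without GDF11 (lowest 0.113) and for GDF11 in senescent MSCs (lowest 0.448), and the numbers were taken as pairs there, but not for MmC with GDF11 (lowest 0.029) or GDF11 in young MSCs (lowest 0.098). Alternatives were other scalings, filters, fits (limma-voom 3.58.1, DESeq2 1.42.0), the replicate block, the groups compared alone, and leaving libraries out. The canonical length, and list counts with the block or without replicate 1, were added after seeing the data. The edgeR fit with no block was tested for MmC without GDF11 on simulated counts that held no replicate effect. That simulation did not cover the block, the check of replicate numbers or the leave-out fits.

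The members and the gene lists were chosen with earlier results of these data known. Beside the members, the genes named are per list up to 3 with the lowest adjusted p and 3 with the largest change among those called for MmC without GDF11, the 3 most alike profiles of members called with a log2 fold change of at least 1, and the genes beside the members on the chromosome, whatever their values.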

Additional observations from a re-analysis of the deposited data

Results flagged for a closer look

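In 6 of 40 groups of 4 libraries (10 transcripts in 4 groups) 1 library lay far from the other 3, by Dixon's test at the 95% level, where chance gives about 5% of groups. In 5 of the 6 the library was replicate 1. FMOD had 52.5 CPM in replicate 1 of MmC-/GDF11- where the others had 11.5 to 11.6, 42.1 CPM in replicate 1 of MmC-/GDF11+ where the others had 9.51 to 11.5, and 138 CPM in replicate 1 of MmC+/GDF11- where the others had 52.1 to 60.8. ASPN had 18.0 CPM in replicate 1 of MmC+/GDF11+ where the others had 5.25 to 6.02. PODN had 162 CPM in replicate 1 of MmC-/GDF11- where the others had 46.3 to 56.0. BGN was flagged for a low library, with 82.3 CPM in replicate 4 of MmC+/GDF11+ where the others had 136 to 146.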

How the results depend on the processing

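The number of the 10 transcripts called stayed between 3 and 7 in both MmC comparisons under other scalings, at least 10 counts in every library, limma-voom, DESeq2, the groups compared alone and the replicate block, and fell to 2 without a filter beyond 1 count, where 20.4% and 20.9% of all genes were called. Under the settings other than that filter, the share of all genes called lay between 39.6% (groups compared alone, without GDF11) and 59% (block, with GDF11). Over the fits that left out libraries the number of the 10 called ranged from 1 to 6 in both comparisons, beside 28.7% to 52.6% of all genes. It was 3 without replicate 2 or 4 of MmC+/GDF11- for MmC without GDF11, beside 40.7% and 39.8% of all genes. For both comparisons it was 2 without number 2 and 1, OGN alone, without number 3. The share of all genes called fell as well, from 45.3% and 46.7% to 32.8% and 35.5% without number 2 and to 28.7% in both without number 3. For the GDF11 effects and the interaction it stayed at 0 in all settings. The cause of these changes was not tested. With the replicate block MmC without GDF11 gave 7 calls (BGN and PODN added) and MmC with GDF11 gave 5 (OMD added, -2.24, adjusted p = 5.79e-06), that is, 50% of the 10 against 59% of all genes in that fit. For MmC with GDF11, where the numbers were not taken as pairs, and for the GDF11 effects, the block changed no other call. Values that changed sign were all uncalled. LUM for MmC without GDF11 became 0.074 with the block and 0.062 in limma-voom. In limma-voom the effect of GDF11 in senescent MSCs became 0.056 for OGN and -0.0034 for VCAN. The interaction of ASPN became 0.015 with upper-quartile scaling, 0.0014 with at least 10 counts in every library and 0.0084 in DESeq2. Over the fits that left out libraries the log2 fold changes that changed sign ranged, for MmC without GDF11, from -0.27 to 0.51 for LUM and -1.10 to 0.21 for PRELP. For MmC with GDF11 they ranged from -0.22 to 0.56 for LUM, -0.59 to 0.21 for PRELP and -1.02 to 0.0074 for PODN. For GDF11 in young MSCs they ranged from -0.41 to 0.34 for DCN, -0.46 to 0.57 for LUM, -0.53 to 0.19 for BGN, -1.08 to 0.67 for FMOD, -0.58 to 0.12 for OGN, -1.15 to 0.78 for OMD, -0.81 to 0.46 for PRELP, -0.57 to 0.84 for ASPN, -0.63 to 0.42 for PODN and -0.24 to 0.017 for VCAN. For GDF11 in senescent MSCs they ranged from -0.053 to 0.13 for DCN, -0.15 to 0.37 for LUM, -0.31 to 0.054 for BGN, -0.42 to 0.48 for FMOD, -0.44 to 0.46 for OGN, -0.73 to 1.35 for OMD, -0.16 to 0.31 for PRELP, -0.49 to 0.73 for ASPN, -0.56 to 0.69 for PODN and -0.040 to 0.067 for VCAN. For the interaction they ranged from -0.30 to 0.44 for DCN, -0.44 to 0.59 for LUM, -0.29 to 0.43 for BGN, -0.65 to 1.10 for FMOD, -0.29 to 0.81 for OGN, -0.58 to 1.76 for OMD, -0.38 to 0.89 for PRELP, -0.70 to 0.71 for ASPN, -0.39 to 0.89 for PODN and -0.014 to 0.24 for VCAN. At 8 to 52 counts per senescent library, counting error limits the level of OGN there.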

Other observations

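A few small differences with GDF11 pointed the same way in all 4 same-numbered pairs and were picked after their values had been seen. In senescent MSCs LUM was higher with GDF11 in 4 of 4 pairs, by 0.030 to 0.198 in log2 CPM, and OMD by 0.14 to 0.67. In young MSCs, where the numbers were not taken as pairs, FMOD was lower with GDF11 in 4 of 4 same-numbered libraries, by -0.32 to -0.0053. How many transcripts would point 1 way in all 4 by chance was not tested. The fitted log2 fold changes were 0.12 for LUM, 0.20 for OMD and -0.25 for FMOD, and none passed in edgeR's test (adjusted p = 1.00 each).

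Without the libraries numbered 1, the 3 young libraries of FMOD without GDF11 had a mean of 11.5 CPM with an SD of 0.0467, and the senescent ones 55.3 ± 4.82 CPM (n = 3). ASPN had 20.3 ± 6.40 and 5.21 ± 1.21 CPM, OMD 2.54 ± 1.04 and 0.371 ± 0.152 CPM, and OGN 2.14 ± 0.816 and 0.168 ± 0.0961 CPM in the same libraries. In RPKM by the length of all exons, DCN then stood 3rd of the 10 in both young groups and 1st in both senescent groups. This order rests on the length used. With the canonical length and all libraries DCN had the highest mean in every group.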
